A study of Homo sapiens with 8 samples.

Results

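GDF15 and 9 other ligands of the TGF-beta family were followed through a transcriptome series of human neuroblastoma (NB) cell aggregates. The 10 genes (GDF15, INHBE, INHBA, BMP2, BMP4, BMP7, TGFB1, TGFB2, TGFB3 and GDF11) were taken by symbol from the 60676 genes of the count matrix, and each was matched to a single row. They were chosen with the values of these same samples known, so their levels and their differences from control are given as a description, with no test.

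The cells were IGR-N91, an established human NB line derived from a sympathetic nervous system tumour, grown as aggregates in hanging drops. All aggregates were of this line, and groups differed in the medium. The methods describe aggregation assays with fluorescent cells and a derivative of the line that stably expresses GFP, and the labels do not say whether the sequenced cells carried it. Control aggregates received medium without cultured tissue. E8-cGScm denotes medium conditioned by sympathetic ganglia of chick embryos at embryonic day 8 (GS in the sample labels stands for sympathetic ganglia), E8-cDRGcm medium conditioned by dorsal root ganglia of chick embryos at embryonic day 8, and E15.5-mGScm medium conditioned by sympathetic ganglia of mouse embryos at stage E15.5. Each of the 4 groups had 2 libraries, made from 50 ng of total RNA and read as 75-base single reads. The exposure was 20 h in the sample protocol and 24 h in the series design. The chick and mouse media differ in species and in stage together, and a single stage of each was sequenced, so these cannot be told apart. Nothing in the labels says that the 2 libraries of a group came from separate cultures, so a p-value measures the spread between libraries, which may be technical.

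The TGF-beta family consists of secreted dimers cut from larger precursors. TGF-betas are held in a latent complex until released and, like activins and GDF11, signal through type I and type II serine/threonine kinase receptors to SMAD2 and SMAD3, whereas bone morphogenetic proteins (BMPs) signal to SMAD1, SMAD5 and SMAD9. GDF15 is a divergent member that acts through GFRAL with RET as co-receptor, and its gene is a known target both of ATF4, the transcription factor of the integrated stress response, and of p53. In the embryo, BMPs made by the dorsal aorta direct neural crest cells towards the sympathetic lineage from which NB arises.

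Start-site upstream sequence is shown for 3 members whose levels moved differently between media: GDF15, which was near 0 in control, GDF11, whose level was lower in both chick media, and TGFB1, the most abundant ligand RNA per kb of exon. Each is the 250 bases before the annotated start site, 5′ to 3′ on the gene's own strand, from RefSeq on GRCh38.p14. Capitals mark the TATA box letters TATAAA, and the stretch for TGFB1 holds no match. The positions are chr19:18385908-18386157 on the plus strand for GDF15, chr12:55742872-55743121 on the plus strand for GDF11, and chr19:41353923-41354172 on the minus strand for TGFB1.
GDF15: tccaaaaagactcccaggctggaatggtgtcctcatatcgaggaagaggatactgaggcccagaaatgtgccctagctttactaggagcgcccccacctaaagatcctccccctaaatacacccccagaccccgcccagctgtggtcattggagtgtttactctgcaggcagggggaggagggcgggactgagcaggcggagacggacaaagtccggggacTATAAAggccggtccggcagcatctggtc
GDF11: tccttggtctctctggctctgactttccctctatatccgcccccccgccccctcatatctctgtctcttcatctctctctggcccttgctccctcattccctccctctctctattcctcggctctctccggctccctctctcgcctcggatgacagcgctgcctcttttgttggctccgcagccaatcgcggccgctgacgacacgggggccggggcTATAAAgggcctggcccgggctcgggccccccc
TGFB1: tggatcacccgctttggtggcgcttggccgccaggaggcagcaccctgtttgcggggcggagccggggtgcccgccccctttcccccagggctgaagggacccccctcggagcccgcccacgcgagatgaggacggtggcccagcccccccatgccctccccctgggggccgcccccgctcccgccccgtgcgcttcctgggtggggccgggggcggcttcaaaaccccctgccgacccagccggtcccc

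RefSeq promoter entries (250 bases before to 50 after the start site) were found for 7 of the 10 members, with 10 entries in all. INHBE, BMP2 and BMP7 had none in the table used. TATAAA was searched on both strands. Its first base lay 29 bases before the start site in GDF15 and TGFB2, 33 bases before it in GDF11, 30 bases before it in the second TGFB3 entry and 11 bases before it in INHBA. Of all 35116 promoter entries, 11.5% held these letters. The C/EBP-ATF composite element bound by ATF4, searched as TGATGNAA, was present in 3.62% of all entries and in no member's entry. The cAMP response element TGACGTCA (1.85% of all entries) and the SMAD palindrome GTCTAGAC (0.202%) matched no member either, and the GC-rich SMAD element GGCGCC (19.2%) matched the first BMP4 entry alone. No match in a member overlapped a match of another motif, and a window without a match says only that these letters are not in it. In the bases printed above, GC content was 58.4% for GDF15, 64.4% for GDF11 and 76.8% for TGFB1, and the median over all promoter entries was 58%.

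The libraries held 7930765 to 15060744 gene-assigned reads, fewest in E15.5-mGScm. A floor of 3 reads corresponded to 0.197 to 0.384 CPM (read counts scaled to a common library size, with TMM factors). The NB identity of the aggregates was visible in every group. The summed level of 10 noradrenergic NB markers, MYCN, HAND2 and STMN2 among them, was 7700 to 7913 CPM in control, 6063 to 6430 in E8-cGScm, 4757 to 4805 in E8-cDRGcm and 4812 to 4971 in E15.5-mGScm, and only CHGA, a secretory granule protein, had under 10 reads in each library. PTPRC, CD68 and the other immune markers stayed under 10 reads each. The summed level of 6 Schwann cell and glial markers was 1.12 to 1.45 CPM in control and 2.24 to 4.10 in the conditioned media. SOX10 and FABP7 were at 0 in every library, and 4 of the 6 stayed under 10 reads in each. By the threshold given below, ERBB3 alone was called against control, higher in E8-cDRGcm and E15.5-mGScm. In these media 9.81% and 6.65% of all genes tested were called higher. In bulk RNA, fewer cells of a kind and less RNA per cell cannot be told apart.

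Of the 10 members, 7 passed the filter on low counts that left 16680 genes to be tested. GDF15 passed it only through the conditioned groups, in which it is high. BMP2, BMP4 and BMP7, ligands of the BMP branch, did not pass. No BMP2 read was present in any library, which allows up to 0.384 CPM in the shallowest library. BMP4 had 2 reads, both in E8-cDRGcm library 1. BMP7 had 0 and 2 reads in control, none in either chick group, and 2 and 3 reads in E15.5-mGScm.

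**Figure D1:**
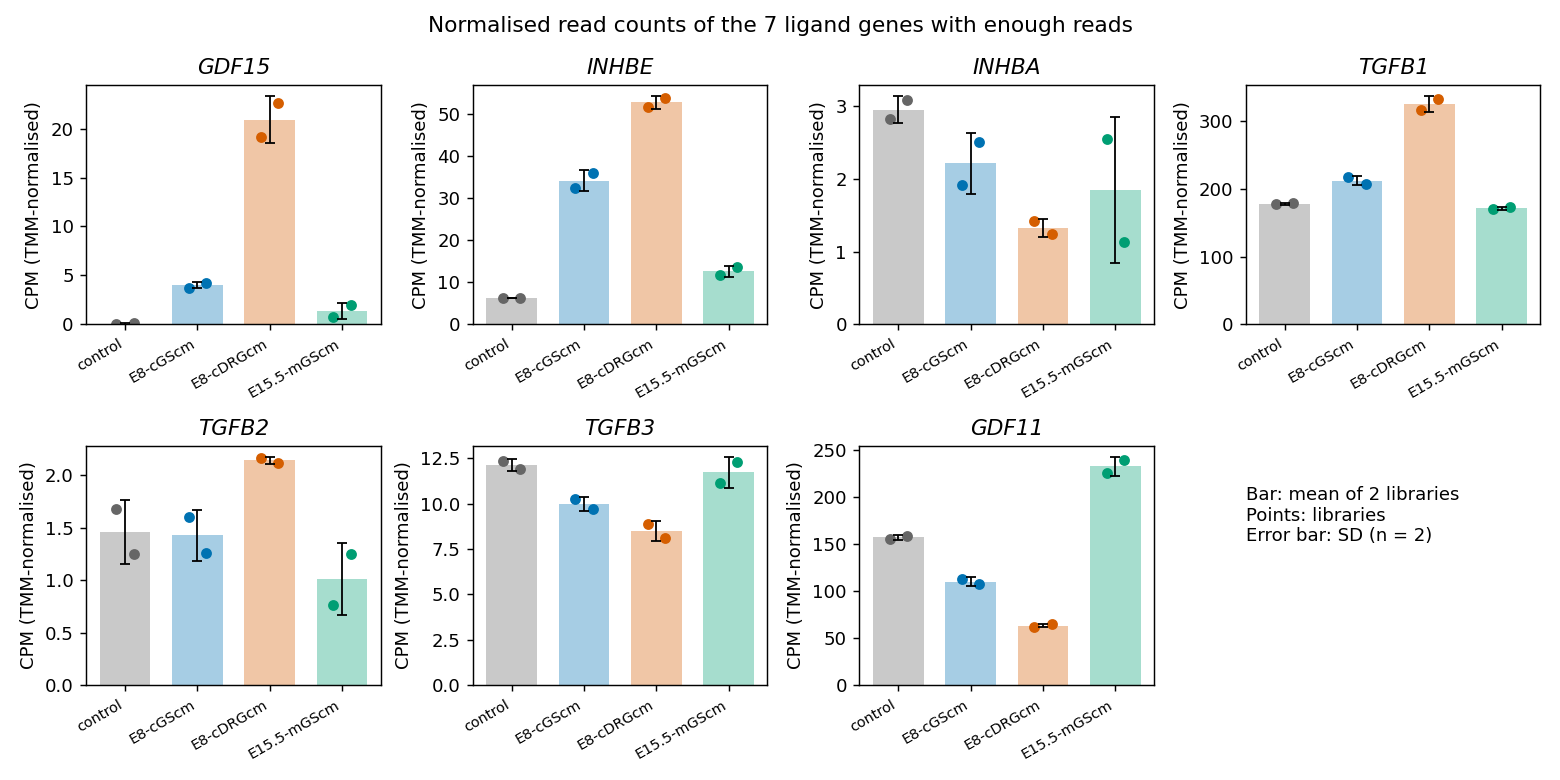
Normalised read counts (CPM, vertical axes starting at 0) of the 7 ligand genes that passed the filter, by medium. Bars are means of 2 libraries, points are libraries and error bars are SD. GDF15 and INHBE are highest in E8-cDRGcm, next in E8-cGScm, then in E15.5-mGScm and lowest in control, while GDF11 is lowest in E8-cDRGcm.

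GDF15 (ENSG00000130513, chromosome 19, 18386158 to 18389176 on GRCh38.p14) was all but silent in control medium and was present in all 3 conditioned media. It had 0 and 2 reads in control, 47 and 60 in E8-cGScm, 257 and 309 in E8-cDRGcm, and 6 and 17 in E15.5-mGScm. In CPM these were 0 and 0.131, 3.76 and 4.19, 19.2 and 22.6, and 0.767 and 1.94. No 2 groups overlapped. The order was E8-cDRGcm, E8-cGScm, E15.5-mGScm and control, and the last step, of 1.29 CPM, was under 2 times the combined SD of its groups (0.833), whereas the other steps exceeded it.

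With 2 control reads in all, the fold against control is poorly bounded. The ratio of pooled normalised reads was 56.6 for E8-cGScm (95% exact counting interval 15.3 to 473), 296 for E8-cDRGcm (81.6 to 2452) and 19.6 for E15.5-mGScm (4.85 to 172). Between conditioned media the reads allow tighter ratios. GDF15 was 5.24-fold higher in E8-cDRGcm than in E8-cGScm (4.25 to 6.50), 15.1-fold higher in E8-cDRGcm than in E15.5-mGScm (9.95 to 24.0), and 2.88-fold higher in E8-cGScm than in E15.5-mGScm (1.82 to 4.74). These intervals cover counting error only. Both control reads came from 1 library: without control library 2 the control level is 0 reads, and no ratio can be formed.

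INHBE (ENSG00000139269, chromosome 12, 57455307 to 57458025), which encodes the activin beta E subunit and is best known from liver, had the same order of media at a higher level. Its reads were 81 and 94 in control, 405 and 515 in E8-cGScm, 694 and 737 in E8-cDRGcm, and 92 and 119 in E15.5-mGScm. The normalised levels were 6.18 ± 0.00903 CPM in control, 34.2 ± 2.54 in E8-cGScm, 52.9 ± 1.47 in E8-cDRGcm and 12.7 ± 1.28 in E15.5-mGScm (SD, n = 2). No groups overlapped, and each step in the order exceeded 2 times its combined SD. The pooled ratio to control was 5.56 in E8-cGScm (95% counting interval 4.72 to 6.57), 8.56 in E8-cDRGcm (7.31 to 10.1) and 2.06 in E15.5-mGScm (1.68 to 2.53). The raw reads of E15.5-mGScm and control look alike only because the mouse-medium libraries were shallower. An antisense long noncoding RNA that shares exonic positions with INHBE had 3 to 14 reads per library.

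INHBA (ENSG00000122641, chromosome 7, 41685114 to 41705406) encodes the beta A subunit shared by activin A and inhibin A and was scarce in all media. Its levels were 2.82 and 3.09 CPM in control, 1.92 and 2.52 in E8-cGScm, 1.42 and 1.24 in E8-cDRGcm, and 2.56 and 1.14 in E15.5-mGScm. Control stood above the other 3 groups without overlap, but its step to E8-cGScm, of 0.736 CPM, was under 2 times the combined SD (0.460). The E15.5-mGScm libraries spanned the levels of both chick media, so neighbours below control in the order did not separate. The fitted log2 difference from control was -0.41 (SE 0.29) in E8-cGScm, -1.15 (SE 0.32) in E8-cDRGcm and -0.70 (SE 0.34) in E15.5-mGScm. The activin subunit genes INHBE and INHBA thus lay on opposite sides of control in each medium.

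TGFB1 (ENSG00000105329, chromosome 19, 41330323 to 41353922), the founding ligand of the family, had the most reads of the members in control and both chick media. In E15.5-mGScm, GDF11 had more reads. TGFB1 stood at 177 and 179 CPM in control, 217 and 208 in E8-cGScm, 317 and 333 in E8-cDRGcm, and 170 and 173 in E15.5-mGScm. The groups did not overlap, and each step in the order exceeded 2 times its combined SD. The last step, from control to E15.5-mGScm, rests on SDs from 2 libraries and is not taken as resolved. The pooled ratio of E15.5-mGScm to control was 0.961, with a counting interval of 0.918 to 1.007 that includes equality. The log2 difference from control was 0.25 in E8-cGScm, 0.87 in E8-cDRGcm and -0.06 in E15.5-mGScm (SE 0.05 in each). Part of the TGFB1 exonic sequence lies opposite exons of HNRNPUL1, which had 3176 to 6588 reads per library, and how the counting treated strand is not given in the sources used here.

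TGFB2 and TGFB3, the other TGF-beta isoforms, were low. TGFB2 (ENSG00000092969, chromosome 1, 218345336 to 218444619) lay between 0.767 and 2.17 CPM in all libraries, with both E8-cDRGcm libraries (2.17 and 2.12) above the rest, and the control and E8-cGScm libraries overlapping. TGFB3 (ENSG00000119699, chromosome 14, 75958097 to 75983011) stood at 12.4 and 11.9 CPM in control, 10.2 and 9.72 in E8-cGScm, 8.89 and 8.12 in E8-cDRGcm, and 11.1 and 12.3 in E15.5-mGScm. Both chick groups were below control without overlap, and the mouse group overlapped control. The pooled TGFB3 ratio to control was 0.823 in E8-cGScm and 0.702 in E8-cDRGcm.

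GDF11 (ENSG00000135414, chromosome 12, 55743122 to 55757264), a close relative of myostatin that patterns the embryonic axis and restrains neurogenesis, ran opposite to TGFB1 in the chick media. It stood at 155 and 159 CPM in control, 113 and 107 in E8-cGScm, 61.9 and 64.4 in E8-cDRGcm, and 225 and 239 in E15.5-mGScm. No groups overlapped and each step exceeded 2 times its combined SD. The log2 difference from control was -0.51 in E8-cGScm, -1.31 in E8-cDRGcm and 0.57 in E15.5-mGScm (SE 0.05, 0.06 and 0.05). GDF11 thus lay below control in the chick media and above it in the mouse medium, where the difference was short of 1.5-fold, whereas TGFB1 lay above control in the chick media and close to it in the mouse medium. SARNP, on the opposite strand, overlaps its exons and had 14 to 39 reads per library.

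**Figure D2:**
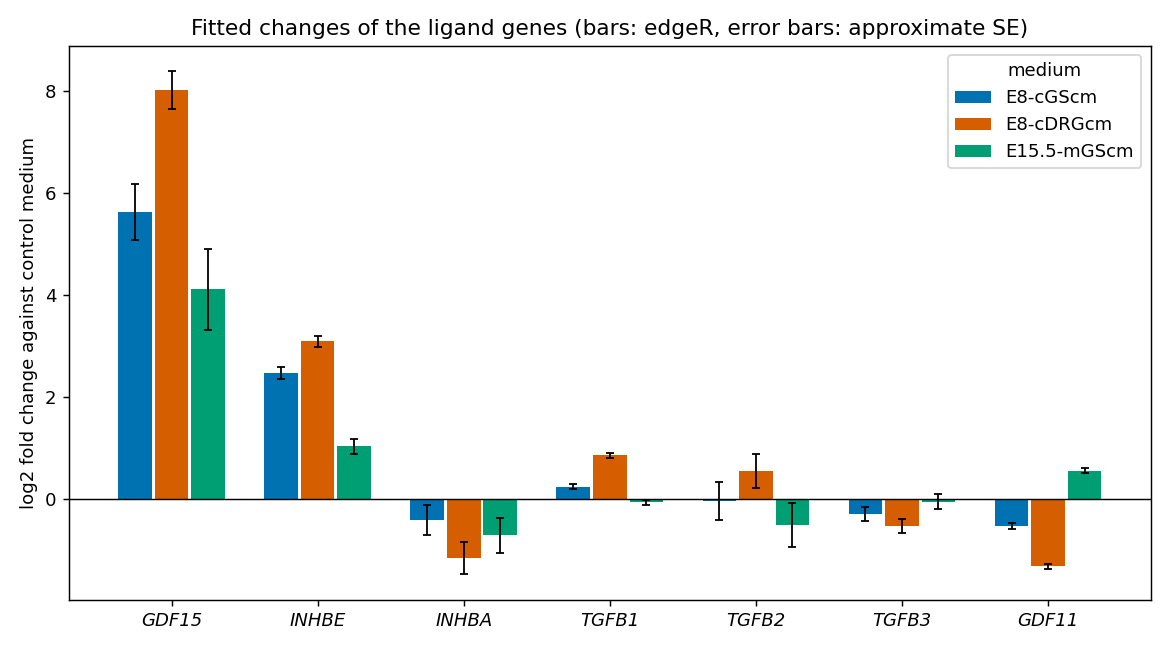
Fitted log2 fold change against control medium (vertical axis) for the 7 ligand genes, with bars for E8-cGScm, E8-cDRGcm and E15.5-mGScm and error bars of 1 approximate SE. GDF15, at 5.63, 8.02 and 4.11, rests on 2 control reads, and GDF11 lies below 0 in both chick media and at 0.57 in E15.5-mGScm.

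By the threshold applied to all genes (edgeR adjusted p below 0.05 and a fold of at least 1.5), GDF15 and INHBE were called higher in E8-cGScm, where 8.59% of all genes tested were called (4.73% higher and 3.86% lower). In E8-cDRGcm, GDF15, INHBE and TGFB1 were called higher and INHBA and GDF11 lower, against 20.7% of all genes called (9.81% higher and 10.9% lower). In E15.5-mGScm, GDF15 and INHBE were called higher, against 13.9% of all genes (6.65% higher and 7.27% lower). The members were chosen on these contrasts, so nothing is read from these counts. The median log2 difference of the 7 members was -0.03, 0.56 and -0.04 in the 3 media, beside 0.01, 0.01 and -0.02 over all genes tested. The 3 contrasts share the control libraries.

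Read numbers divided by exonic length allow the ligands to be compared with each other. Over 33 ligand genes of the family, the 10 members included, summed levels were 80.4 and 81.4 CPM per kb in control, 97.3 and 95.2 in E8-cGScm, 135 and 143 in E8-cDRGcm, and 86.9 and 90.3 in E15.5-mGScm. Of the 33 ligands, 12 reached 10 reads in some library and 7 had no read at all. TGFB1 was the largest component throughout, with 67.6% and 67.4% of the pool in control, 68.3% and 66.8% in E8-cGScm, 71.7% and 71.6% in E8-cDRGcm, and 59.8% and 58.7% in E15.5-mGScm.

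The order below TGFB1 differed between media. GDF11 made up 21.9% and 22.1% of the pool in control, 13.2% and 12.8% in E8-cGScm, 5.19% and 5.14% in E8-cDRGcm, and 29.5% and 30.1% in E15.5-mGScm. INHBE made up 2.53% and 2.49% in control, 10.9% and 12.4% in E8-cGScm, 12.6% and 12.4% in E8-cDRGcm, and 4.45% and 4.93% in E15.5-mGScm. GDF15 made up 0% and 0.0773% of the pool in control, 1.85% and 2.11% in E8-cGScm, 6.79% and 7.60% in E8-cDRGcm, and 0.423% and 1.03% in E15.5-mGScm. In E8-cDRGcm, INHBE and GDF15 each therefore exceeded GDF11 per kb, whereas in control GDF11 exceeded both. This order depends on the lengths used, all annotated exons of a gene joined (8801 bases for GDF11, 3046 for INHBE, 2087 for GDF15). In CPM without division by length, GDF11 (63.2) stayed above INHBE (52.9) and GDF15 (20.9) in E8-cDRGcm.

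The remaining ligands, receptors, extracellular regulators and SMADs were described from lists of genes drawn up by role. Counting each gene once over the 6 pathway lists, 68 of 107 genes were tested. In E8-cGScm 6 rose and 4 fell, in E8-cDRGcm 7 rose and 8 fell, and in E15.5-mGScm 9 rose and 7 fell, beside 8.59%, 20.7% and 13.9% of all genes tested that were called. The median log2 difference over the 68 genes was -0.09, -0.03 and 0.09, beside 0.01, 0.01 and -0.02 over all genes tested. Genes that are named below to account for a small count without being among the largest changes of their list were chosen after their values were seen.

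Of 23 other ligands, 4 passed the filter. GDF10 (BMP3B), a divergent BMP, fell in all 3 media. It had 48 and 49 reads in control, 26 and 22 in E8-cGScm, 1 and 2 in E8-cDRGcm, and 11 and 12 in E15.5-mGScm. Its log2 difference from control was -0.93 (SE 0.29, edgeR adjusted p = 0.0113) in E8-cGScm, -4.83 (SE 0.52, adjusted p = 3.01e-10) in E8-cDRGcm and -1.30 (SE 0.34, adjusted p = 0.00245) in E15.5-mGScm. The E8-cGScm call was lost with DESeq2 (adjusted p = 0.136), without control library 1 (0.0879) and without E8-cGScm library 2 (0.149). BMP8B rose in E8-cDRGcm, from 6 and 11 reads to 33 and 30 (log2 difference 1.94, SE 0.43, adjusted p = 0.000214), a value left uncertain by its near-identical neighbour BMP8A, between which reads can be split. BMP8B passed the filter only through the chick groups, in which it is higher.

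Among receptors and co-receptors, 15 of 20 were tested, none rose, and 2, 2 and 3 fell in E8-cGScm, E8-cDRGcm and E15.5-mGScm, where 3.86%, 10.9% and 7.27% of all genes tested were called lower. ACVRL1 (ALK1), a type I receptor for circulating BMPs best known from endothelium, fell in all media. It stood at 7.25 and 6.17 CPM in control, 3.68 and 3.15 in E8-cGScm, 0.373 and 0.293 in E8-cDRGcm, and 2.30 and 3.08 in E15.5-mGScm. The log2 differences were -0.97 (SE 0.21, adjusted p = 0.000415), -4.29 (SE 0.34, 2.45e-13) and -1.30 (SE 0.25, 6.04e-05). The summed level of 5 endothelial markers, with CDH5 and CLDN5 at 0, was low and also highest in control. It was 1.31 to 1.60 CPM in control, 0.769 to 1.04 in E8-cGScm, 0.146 to 0.597 in E8-cDRGcm and 0.456 to 1.02 in E15.5-mGScm. Their part in the ACVRL1 result was not tested. The fall of ACVRL1 in E8-cDRGcm exceeded that in E8-cGScm in the direct comparison of these media (log2 difference -3.32, SE 0.40, adjusted p = 2.27e-08).

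The other receptor calls were in single media. BMPR1B, a type I BMP receptor, fell in E8-cGScm (log2 difference -0.61, SE 0.06, adjusted p = 5.62e-10). In E8-cDRGcm its difference was -0.51 (SE 0.06), under the fold threshold. The direct comparison of E8-cDRGcm with E8-cGScm gave 0.09 (SE 0.06, edgeR adjusted p = 0.287). RGMA, a BMP co-receptor, fell in E8-cDRGcm (-0.68, SE 0.22, adjusted p = 0.00966), a call lost with DESeq2 (0.0825), without control library 2 (0.0857) and without E8-cDRGcm library 1 (0.0942). In E15.5-mGScm the pseudoreceptor BAMBI went from 22.1 and 24.2 CPM in control to 10.1 and 8.78 (-1.30, SE 0.13, adjusted p = 2.67e-10). RET, which GDF15 engages together with GFRAL and which also serves GDNF in sympathetic neurons, went from 427 and 400 CPM to 222 and 242 in E15.5-mGScm (-0.83, SE 0.05, adjusted p = 9.23e-16), with differences of 0.06 and -0.10 in the chick media. No read of GFRAL was present in any library. ACVR2B, BMPR2 and TGFBR1 lay within 1.5-fold of control in each medium.

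Of 20 secreted antagonists, 10 were tested. In E8-cGScm 1 rose, in E8-cDRGcm 1 rose and 1 fell, and in E15.5-mGScm 3 rose and 1 fell, where 8.59%, 20.7% and 13.9% of all genes tested were called. DCN (decorin), a matrix proteoglycan that binds TGF-beta, stood at 2.75 and 2.76 CPM in control and at 13.7 and 13.5 in E15.5-mGScm (log2 difference 2.30, SE 0.20, adjusted p = 1.13e-11). FSTL3 and FST passed the filter on low counts only through E15.5-mGScm, in which they are high. FSTL3, which binds activins and GDF11, rose from 9 and 9 reads to 18 and 30 (2.16, SE 0.43, adjusted p = 9.63e-05). FST (follistatin), an activin antagonist, went from 5 and 4 reads to 8 and 15 (2.09, SE 0.61, adjusted p = 0.0053), a call lost with DESeq2 (0.0617), without control library 2 (0.0683) and without E15.5-mGScm library 2 (0.166). KCP, a BMP modulator, fell from 19 and 20 reads to 4 and 1 (-2.15, SE 0.63, adjusted p = 0.00541), a call lost without E15.5-mGScm library 2 (0.152).

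DCN is also made by fibroblasts. The summed level of 8 fibroblast markers was 548 to 552 CPM in control and 549 to 552 in E15.5-mGScm, but its members diverged: PDGFRA, COL1A2 and LUM rose in E15.5-mGScm (log2 differences 3.65, 2.01 and 0.93) and COL1A1 and THY1 fell (-1.82 and -0.65), and POSTN had no read. Their part in the DCN result was not tested. In the chick media, DCN fell in E8-cDRGcm (-0.69, SE 0.28, adjusted p = 0.0383), a call lost with DESeq2 (0.113), without the count filter (0.071) and without either control library or E8-cDRGcm library 1 (0.0997 to 0.325).

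Of 16 genes for ligand latency and processing, 13 were tested. In E8-cGScm 1 rose and 1 fell, in E8-cDRGcm 2 rose and 3 fell, and in E15.5-mGScm 4 rose and 1 fell, where 8.59%, 20.7% and 13.9% of all genes tested were called. TLL1, a metalloprotease that frees growth factors from their antagonists, went from 7.10 and 8.53 CPM in control to 22.2 and 27.2 in E15.5-mGScm (log2 difference 1.66, SE 0.14, adjusted p = 2.41e-12). LTBP1, which anchors latent TGF-beta to the matrix, rose in the same medium (0.90, SE 0.06, adjusted p = 1.93e-15), as did ITGAV (0.76, SE 0.06, 1.53e-13) and ITGB8 (1.06, SE 0.35, 0.0153), the subunits of an integrin that activates latent TGF-beta. The ITGB8 call was lost with DESeq2 (0.105) and without control library 1 (0.0754) or E15.5-mGScm library 2 (0.296). LTBP4 fell in E15.5-mGScm (-0.69, SE 0.13, adjusted p = 4.1e-05) and rose in E8-cDRGcm (0.82, SE 0.10, 4.2e-09).

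Of the proprotein convertases that cut TGF-beta family precursors, FURIN stood at 27.6 and 27.4 CPM in control and 52.4 and 56.7 in E8-cDRGcm (log2 difference 0.99, SE 0.08, adjusted p = 1.02e-12). In E8-cGScm its difference was 0.48 (SE 0.09), under the fold threshold. PCSK6 (PACE4) went from 47.6 and 45.2 CPM to 27.5 and 25.4 in E8-cGScm (-0.81, SE 0.08, adjusted p = 1.07e-09) and 19.6 and 18.1 in E8-cDRGcm (-1.30, SE 0.09, 4.97e-15). PCSK7 was not called in either chick medium (-0.19 and -0.07), and PCSK5 was not tested. The remaining chick-medium calls were THBS1, an activator of latent TGF-beta, up in E8-cGScm (0.73, SE 0.15, 0.000148), and LRRC32 and ITGB8, down in E8-cDRGcm (-1.24 and -0.99). LRRC32 lost its call without control library 2 or E8-cDRGcm library 2 (0.0660 in each), and ITGB8, at an adjusted p of 0.0499, lost it under 9 of the 14 alternatives run (adjusted p up to 0.236).

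All 19 SMADs and regulators were tested, and 2, 2 and 1 rose and none fell in E8-cGScm, E8-cDRGcm and E15.5-mGScm, where 4.73%, 9.81% and 6.65% of all genes tested were called higher. SMAD1 to SMAD5, the receptor-regulated and common SMADs, lay within 1.5-fold of control in every medium. NEDD4L, a ubiquitin ligase acting on activated SMAD2 and SMAD3, rose in all 3 media (0.86, SE 0.11, adjusted p = 9.33e-08 in E8-cGScm, 0.82, SE 0.11, 6.41e-08 in E8-cDRGcm, and 0.61, SE 0.12, 0.000131 in E15.5-mGScm), and in E15.5-mGScm it dropped under the fold threshold without control library 2 (0.55) or without the count filter (0.56). SMAD6, an inhibitory SMAD induced by BMPs, rose in E8-cGScm (0.77, SE 0.16, adjusted p = 0.000195) and TGIF1, a SMAD corepressor, in E8-cDRGcm (0.66, SE 0.16, 0.000626, and 0.55 without control library 1).

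Of 14 genes that respond to BMP or TGF-beta, 12 were tested, and 3 rose in E8-cGScm, 1 rose and 1 fell in E8-cDRGcm, and 1 rose and 2 fell in E15.5-mGScm, where 8.59%, 20.7% and 13.9% of all genes tested were called. ID1, a BMP target, stood at 8.24 and 9.19 CPM in control, 15.8 and 12.4 in E8-cGScm (log2 difference 0.68, SE 0.14, adjusted p = 0.000235) and 14.9 and 17.1 in E8-cDRGcm (0.87, SE 0.14, 1.37e-06), and the E8-cGScm value dropped under the fold threshold without E8-cGScm library 1 (0.50). ID2 rose in E15.5-mGScm (0.91, SE 0.20, adjusted p = 0.000306) and fell in E8-cDRGcm (-0.63, SE 0.22, 0.0166), where the call was lost with DESeq2 (0.0808) and without either control library or E8-cDRGcm library 2 (0.0555 to 0.189). TGFBI, a matrix protein named for its induction by TGF-beta, rose in E8-cGScm (0.93, SE 0.17, 5.3e-05). SMAD6, listed here too, was the third gene that rose in E8-cGScm, and BAMBI and the Notch and BMP target HEY1 (-0.76, SE 0.13, 1.49e-05) fell in E15.5-mGScm.

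**Figure D3:**
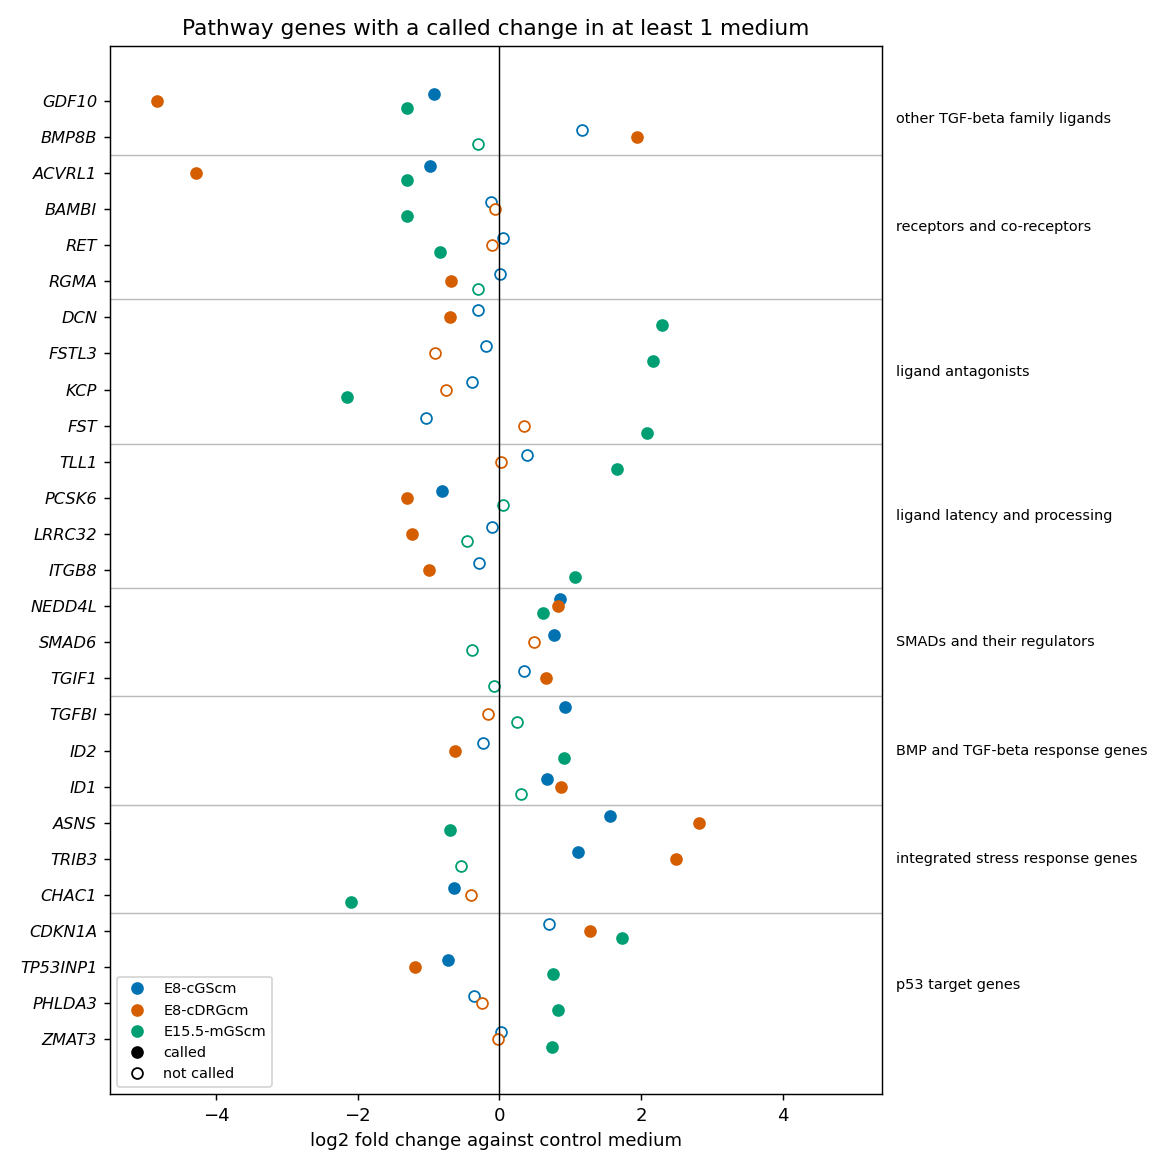
Log2 fold change against control medium (horizontal axis) for named pathway, stress response and p53 target genes, with 1 point per medium. Filled points passed the threshold in edgeR and open points did not. GDF10 and ACVRL1 lie furthest left in E8-cDRGcm (-4.83 and -4.29), ASNS and TRIB3 furthest right (2.82 and 2.49), and DCN, FSTL3, FST and TLL1 lie to the right in E15.5-mGScm. FGF21, with no read in control, is left out.

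GDF15 and INHBE are both known as genes of the integrated stress response, so its other genes were followed beside them. All 14 on the list were tested, with 6 higher and 2 lower in E8-cGScm, 9 higher and none lower in E8-cDRGcm, and none higher and 4 lower in E15.5-mGScm. Of all genes tested, 4.73% were higher and 3.86% lower in E8-cGScm, 9.81% and 10.9% in E8-cDRGcm, and 6.65% and 7.27% in E15.5-mGScm. The median log2 difference of the 14 genes was 0.30, 0.80 and -0.39. ASNS, asparagine synthetase, stood at 3.28 and 4.46 CPM in control, 10.8 and 12.2 in E8-cGScm (log2 difference 1.56, SE 0.17, adjusted p = 2.35e-09), 26.5 and 28.8 in E8-cDRGcm (2.82, SE 0.14, 1.34e-18), and 2.05 and 2.74 in E15.5-mGScm (-0.70, SE 0.27, 0.037). The last call was lost with DESeq2 (0.0932), with only the libraries compared (0.0522) and without control library 2 or either E15.5-mGScm library (0.057 to 0.314).

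TRIB3, a pseudokinase that restrains ATF4, stood at 30.5 and 28.8 CPM in control, 56.3 and 71.1 in E8-cGScm (1.11, SE 0.10, adjusted p = 9.73e-09), 158 and 175 in E8-cDRGcm (2.49, SE 0.09, 5.76e-16) and 18.7 and 21.7 in E15.5-mGScm. FGF21, like GDF15 a stress hormone, had no read in control or E15.5-mGScm, 7 and 6 reads in E8-cGScm and 11 and 12 in E8-cDRGcm. FGF21 passed the filter on low counts only through E8-cDRGcm, in which it is highest. Against a floor of 3 reads over the control group, its ratio was 4.58 in E8-cGScm (edgeR adjusted p = 0.00238) and 8.02 in E8-cDRGcm (edgeR adjusted p = 5.27e-05). These ratios leave out the counting error of the FGF21 reads. DESeq2 gave no adjusted p for E8-cGScm. CHAC1, a glutathione-degrading enzyme, fell in E8-cGScm (-0.64, SE 0.10, adjusted p = 6.22e-06) and in E15.5-mGScm (-2.10, SE 0.14, 6.88e-15). The E8-cGScm fold dropped under the threshold without control library 1 (-0.48) or E8-cGScm library 1 (-0.53). ATF3, a transcription factor of the same response, fell in E8-cGScm and E15.5-mGScm (-0.83 and -0.73), so the list did not move as a whole.

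Set directly against each other, the media separated for these 14 genes. In E8-cDRGcm 5 were higher than in E8-cGScm and none lower, where 7.49% of all genes tested were called (2.62% higher and 4.87% lower). In E15.5-mGScm 12 were lower than in E8-cDRGcm and none higher, where 26.2% of all genes were called (13.1% lower). GDF15 and INHBE lay above control in E15.5-mGScm, where none of these 14 genes was called higher by edgeR. By adjusted p alone, 1 was higher there (PPP1R15A, a phosphatase subunit that ends the response, log2 difference 0.39, SE 0.09, adjusted p = 0.00116) and 10 were lower.

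All 12 genes on a list of p53 targets were tested, with none higher and 1 lower in E8-cGScm, 1 higher and 1 lower in E8-cDRGcm, and 5 higher and none lower in E15.5-mGScm. Of all genes tested, 4.73% were higher and 3.86% lower in E8-cGScm, 9.81% and 10.9% in E8-cDRGcm, and 6.65% and 7.27% in E15.5-mGScm. CDKN1A, the cell cycle inhibitor p21, stood at 2.21 and 1.31 CPM in control, 2.64 and 3.01 in E8-cGScm (log2 difference 0.71, adjusted p = 0.0555), 4.33 and 4.10 in E8-cDRGcm (1.28, SE 0.26, 0.000103), and 5.63 and 5.93 in E15.5-mGScm (1.73, SE 0.27, 2.46e-06). TP53INP1, a mediator of p53-dependent death, fell in both chick media (-0.72, SE 0.08, adjusted p = 9.07e-09, and -1.19, SE 0.09, 3.3e-14) and rose in E15.5-mGScm (0.76, SE 0.08, 2.86e-10). PHLDA3 (0.83, SE 0.17, 0.000117), ZMAT3 (0.74, SE 0.07, 1.18e-11) and BBC3 (0.64, SE 0.18, 0.00402), all p53 targets, were the others that rose in E15.5-mGScm. Against E8-cDRGcm, 5 of the 12 were higher in E15.5-mGScm and none lower, where 13.1% of all genes were higher.

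The genes whose pattern was most like that of GDF15 were ranked by Pearson's r of log2 CPM over the 8 libraries, which fall into 4 groups of 2 and share their normalisation, so r is a description. The 10 highest of 16679 genes included FGFR1 (r = 0.992), PFKP, NIBAN1, ZBTB7B, ACSS3, PPM1E, TRIP10, HADHA and ZNF706 (0.983). They matched GDF15 in the order of media but mostly not in size. FGFR1, a fibroblast growth factor receptor, had group means of 58.1, 81.5, 99.4 and 74.7 CPM in control, E8-cGScm, E8-cDRGcm and E15.5-mGScm. NIBAN1, a stress-responsive gene, came nearest in size, with 1.07 and 1.31 CPM in control, 11.8 and 14.8 in E8-cGScm, 41.6 and 40.1 in E8-cDRGcm, and 4.22 and 4.45 in E15.5-mGScm. Of the 10 genes, 5 remained among the first 10 with a prior count of 0.5 and 1 with Spearman's rho, so membership depends on how low counts and ranks are treated.

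Among the members, GDF15 lay closest to INHBE (r = 0.972) and furthest from TGFB3 (r = -0.90). The genes most like INHBE were WARS1 (r = 0.999), a tryptophanyl-tRNA synthetase, SH3KBP1 (0.998), an endocytic adaptor, and GABARAPL1 (0.993), an autophagy protein. WARS1 stood at 154 and 158 CPM in control, 423 and 447 in E8-cGScm, 590 and 576 in E8-cDRGcm, and 236 and 258 in E15.5-mGScm. SH3KBP1 stood at 2.14 and 1.71, 15.8 and 15.8, 28.4 and 26.8, and 4.09 and 4.90 CPM in the same order of media. The genes most like INHBA were RBM43 (0.981), MIX23 (0.961) and METTL18 (0.958), and with INHBA at 10 to 47 reads a library its pattern is loosely set.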

How the data were processed

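IGR-N91 aggregates in 4 media, 2 libraries each, were sequenced after a stranded total RNA preparation. The deposited values are raw read counts per Ensembl gene, made by the authors with bcl2fastq 2.17.1.14, cutadapt 1.9.1, TopHat2 2.1.0 and HTSeq 0.11.3, as the submitters' processing notes and methods state. The notes name GRCh38 and the methods hg19. The annotation release and HTSeq strand option are not given in the sources used here. Symbols were matched for 58611 of 60676 IDs, and gene positions and promoters are RefSeq, GRCh38.p14.

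Counts were filtered (filterByExpr, minimum 10), TMM-normalised and fitted over all 8 libraries with edgeR 4.0.16 (quasi-likelihood test, R 4.3.3). Benjamini-Hochberg adjustment ran over 16680 genes. Calls required adjusted p under 0.05 and a fold of at least 1.5. SEs are approximate, from the fitted log2 fold change and its F. Fitted folds used a prior count of 0.125, and log2 CPM for correlations a prior count of 2. Counting intervals are exact (Clopper-Pearson, 95%), and a floor of 3 reads was used against groups at 0. Duplicated libraries were checked for by a chi-square of counts over genes within each group: it was 1.78 to 3.78 per gene, so no 2 libraries were within sampling noise. On simulated counts of E8-cDRGcm against control (16680 genes), 77.1% of genes changed by 1 on the log2 scale and 93.4% of those changed by 2 were recovered, with 0 false calls. The simulated counts were drawn from the fitted kind of model with 200 genes changed. They check the code and do not measure the error rate in the real counts. Alternatives included DESeq2 1.42.0, other filters and scalings, a replicate block and leaving out each library.

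The members and gene lists were chosen with earlier results of these data known. Named list genes were those called in at least 1 medium, at most 4 a list by largest absolute log2 fold change, with the 10 genes most like GDF15 and 3 each most like INHBE and INHBA. CRIPTO and PECAM1 are not analysed here. Some genes that these rules would name are not reported here.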

Additional observations from a re-analysis of the deposited data

How the results depend on the processing

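Calls at adjusted p alone, with no fold threshold, were far more numerous: 2679 genes higher and 2534 lower in E8-cGScm, 4143 and 4118 in E8-cDRGcm, and 2975 and 3330 in E15.5-mGScm, with 11 and 11, 17 and 17, and 17 and 17 pathway genes. On the same terms, p53 target genes numbered none higher and 4 lower in E8-cGScm, 2 and 4 in E8-cDRGcm, and 9 and 1 in E15.5-mGScm. Stress response genes numbered 7 higher and 3 lower in E8-cGScm, 11 and 2 in E8-cDRGcm, and 1 and 10 in E15.5-mGScm. The dropped fold threshold accounts for these by construction. DESeq2 called 504 genes higher in E8-cGScm against 789 with edgeR, and 4 pathway genes lower in E8-cDRGcm against 8 (the cause was not tested). Requiring 10 counts in every library removed GDF15 and left 2, 5 and 4 pathway genes lower in the 3 media, with fewer genes tested, and 1 p53 target gene higher in E8-cGScm (CDKN1A, adjusted p 0.0454).

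The fitted log2 fold change of GDF15 depended on the prior count and on the 2 control reads. It was 5.63, 8.02 and 4.11 in E8-cGScm, E8-cDRGcm and E15.5-mGScm, and 4.16, 6.50 and 2.73 with a prior count of 2. Leaving out 1 library at a time gave 4.82 to 8.58, 7.21 to 10.96 and 3.27 to 7.05, the highest values without control library 2, when control had no read. With only the libraries compared, GDF15 did not pass the filter in E15.5-mGScm against control. Of its 10 most like genes, 5 stayed with a prior count of 0.5, 1 with Spearman's rho, and 2 to 7 when 1 library was left out.

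Leaving out 1 library at a time also gave 1 to 2 stress response genes lower in E8-cGScm and 0 to 1 in E8-cDRGcm, 3 to 8 pathway genes lower in E8-cDRGcm (3 without control library 2), and p53 target genes of 0 to 1 higher in E8-cGScm, 1 to 2 higher and 1 to 2 lower in E8-cDRGcm, and 0 to 1 lower in E15.5-mGScm. An arm then left with 1 library was assumed to vary like the other groups.

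The replicate numbers in the titles did not pair the libraries: over the 6 pairs of groups, deviations of equal-numbered libraries from their group means correlated at -0.0437 to 0.0420. With the replicate number as a block, 771 genes were higher and 643 lower in E8-cGScm, 1626 and 1818 in E8-cDRGcm, and 1085 and 1203 in E15.5-mGScm, and among the named genes the ITGB8 call in E8-cDRGcm alone was lost (adjusted p 0.054).

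Of the other values, which concern single named genes, 662 counted as the same, 15 lost and 2 gained a call, and 1 moved. Calls were also lost and gained when a library was left out. A list gene counted as the same on the same side of the threshold, and a member within the combined SD of its groups. No direction reversed. Depth limits BMP2, BMP4, BMP7 and the control level of GDF15.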
